A study of Saccharomyces cerevisiae with 64 samples.

Results

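Of the 7053 gene names in the RNA table, 9 were chosen by name for their part in silencing and at telomeres, SIR1, SIR2, SIR3, SIR4, RIF1, RIF2, RAP1, YKU70 and YKU80, and all 9 had an entry of their own. The study measured RNA and newly made DNA in budding yeast, Saccharomyces cerevisiae, with raised amounts of the forkhead transcription factors Fkh1 or Fkh2, which its title describes as activators of replication origins that set replication timing in G1. The 3 RNA groups were wild-type cells with the galactose promoter alone (WT pGAL, called no OE), with Fkh1 on that promoter (WT pGAL-Fkh1, called Fkh1 OE) and with Fkh2 on it (WT pGAL-Fkh2, called Fkh2 OE), where OE stands for overexpression. All 3 kept their own FKH1 and FKH2 genes, spent 3 h in 7.5 nM α-factor, which arrests a cells in G1, and then 2 h in 2% galactose with the pheromone still present, all at 25 °C, before polyadenylated RNA was taken, with 2 libraries a group. Newly made DNA was marked with the thymidine analogue bromodeoxyuridine (BrdU) after release into S phase in these strains, in an fkh1delta fkh2delta ars501delta::ARS305 strain (called DM) with and without pGAL-Fkh1, and in RNR3 OE cells (WT pGAP-RNR3) with a no OE (WT) control of their own. All of these were released into 0.2 M hydroxyurea, with BrdU at 400 µg/mL. Only no OE and Fkh1 OE were also released without the drug, with pulses of BrdU at 800 µg/mL.

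The SIR proteins form the silent chromatin of the mating-type cassettes HML and HMR and of the chromosome ends. Rap1 binds the telomeric repeats and holds the Sir proteins and the length regulators Rif1 and Rif2 there, and the Ku heterodimer of Yku70 and Yku80 binds the very end. Origins near chromosome ends fire late, and Rif1, Sir3 and Ku are each known to hold such origins back, which makes their levels of interest in a study of replication timing.

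Each level is the authors' FPKM (fragments mapped to the transcript, scaled by its length and by the library's mapped fragments), 1 value a group, which combines the libraries of that group. Values of single libraries were not used here, so no spread between replicates and no n can be set beside a level, and depth is unknown. Each q is the value of Cuffdiff in the authors' deposited table, adjusted for multiple testing, and a gene is called higher or lower where q was below 0.05. The labels do not say that the 2 libraries of a group are separate cultures, and the q may then rest on technical spread alone. The Fkh1 OE and Fkh2 OE comparisons share the no OE group, and their results are therefore not independent of each other.

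The strain labels were checked first on the driven genes. FKH1 stood at 20.9 FPKM in no OE, 1458 in Fkh1 OE and 8.23 in Fkh2 OE, so that it was also 2.54-fold lower in Fkh2 OE than in no OE (q = 0.000327 in the authors' deposited table). FKH2 stood at 14.3, 13.3 and 2220 FPKM in the same order. The labels give no mating type, and 6 of 7 genes specific to a cells were present, with the receptor gene STE2 at 3414, 4609 and 3823 FPKM, while BAR1, the α-factor protease gene, was listed at 0 in all 3 groups. The 4 galactose genes summed to 23079, 24491 and 22013 FPKM, and none of them was called in any comparison.

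RNA of most of these factors was lower in Fkh2 OE. Against no OE, 6 of the 9 were called lower, SIR1, SIR3, SIR4, RIF2, RAP1 and YKU80, by 1.62-fold to 2.58-fold, and 0 were higher, whereas 17.0% of all 6208 genes tested were lower and 13.7% higher. SIR2, RIF1 and YKU70 did not pass the test. At an unadjusted Cuffdiff p below 0.05, 7 members were lower and again 0 higher. The median log2 fold was -0.75 over the 9 and -0.03 over all tested genes. Most members are transcripts of low level, so the same share was taken among the 2745 tested genes whose no OE level lay in the members' range, and there 16.1% were lower and 15.9% higher. Fkh1 OE gave 1 lower member of 9, SIR3, against a background of 5.39% lower and 5.59% higher among 6212 tested genes (5.35% and 6.08% in the members' range of level), with a median log2 fold of -0.34 over the 9 and 0.00 over all tested.

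**Figure D1:**
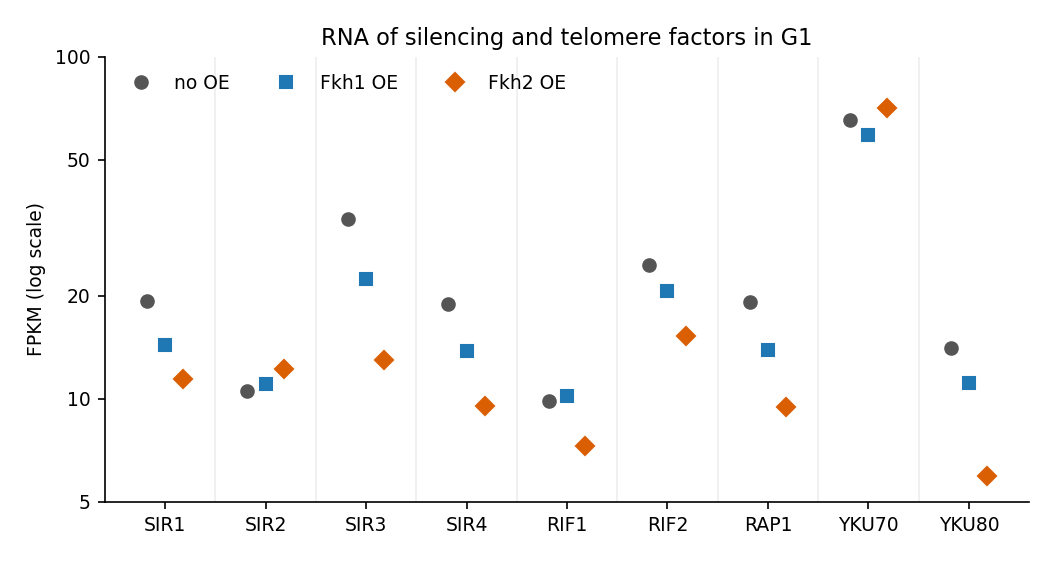
RNA level of each of the 9 genes, as the authors' combined FPKM on a log scale, in no OE (circles), Fkh1 OE (squares) and Fkh2 OE (diamonds); there are no error bars because the deposited table holds 1 value a group. SIR1, SIR3, SIR4, RIF2, RAP1 and YKU80 step down from no OE through Fkh1 OE to Fkh2 OE, and YKU70 stays highest of the 9 in all 3 groups.

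Of the 4 SIR genes, SIR1, SIR3 and SIR4 were called lower in Fkh2 OE than in no OE and SIR2 was not called. A difference in response between genes was not tested. SIR3, whose product binds nucleosomes and spreads along silent chromatin, stood at 33.6 FPKM in no OE, 22.4 in Fkh1 OE and 13.0 in Fkh2 OE. Fkh2 OE thus had the lowest level and no OE the highest, and the fall was 2.58-fold in Fkh2 OE (log2 fold -1.37, q = 0.000327 in the authors' deposited table). Of all tested genes, 3.46% had a log2 fold at or below that of SIR3. In Fkh1 OE SIR3 was 33.3% lower (log2 fold -0.58, q = 0.0174 in the authors' deposited table). This call was lost when the deposited p-values were adjusted over the genes of that comparison alone, with an adjusted p of 0.0678, and the fold fell just short of a limit of 1.5.

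SIR4, the scaffold that holds Sir2 and Sir3 together, stood at 18.9, 13.8 and 9.51 FPKM in no OE, Fkh1 OE and Fkh2 OE. It was 1.99-fold lower in Fkh2 OE than in no OE (log2 fold -0.99, q = 0.000327 in the authors' deposited table). In Fkh1 OE its log2 fold was -0.46, with a q of 0.0701 in the authors' deposited table. SIR1, which acts at the silencers of the mating-type cassettes and recruits the other Sir proteins there, stood at 19.3, 14.4 and 11.4 FPKM. It was 1.69-fold lower in Fkh2 OE (log2 fold -0.75, q = 0.00775 in the authors' deposited table), and its log2 fold in Fkh1 OE was -0.43 with a q of 0.154.

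SIR2 encodes the enzyme of the complex, an NAD-dependent histone deacetylase that also works in the ribosomal DNA. Its level was 10.6, 11.0 and 12.2 FPKM in no OE, Fkh1 OE and Fkh2 OE, the reverse order of SIR1, SIR3 and SIR4. Its log2 folds against no OE were 0.06 in Fkh1 OE and 0.21 in Fkh2 OE, with q of 0.892 and 0.615 in the authors' deposited table. The locus of SIR2 overlaps that of the antisense reading frame YDL041W, listed at 11.9, 20.7 and 17.2 FPKM. No source used here says whether reads were counted by strand, and reads of the pair therefore cannot be told apart. Set against SIR2, SIR3 went from 3.18 times its FPKM in no OE to 2.03 times in Fkh1 OE and 1.06 times in Fkh2 OE. SIR4 went from 1.79 times SIR2 in no OE to 1.25 times in Fkh1 OE and 0.778 times in Fkh2 OE, so that SIR4 stood above SIR2 in no OE and below it in Fkh2 OE. These ratios compare FPKM, which is per length, and were not tested.

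**Figure D2:**
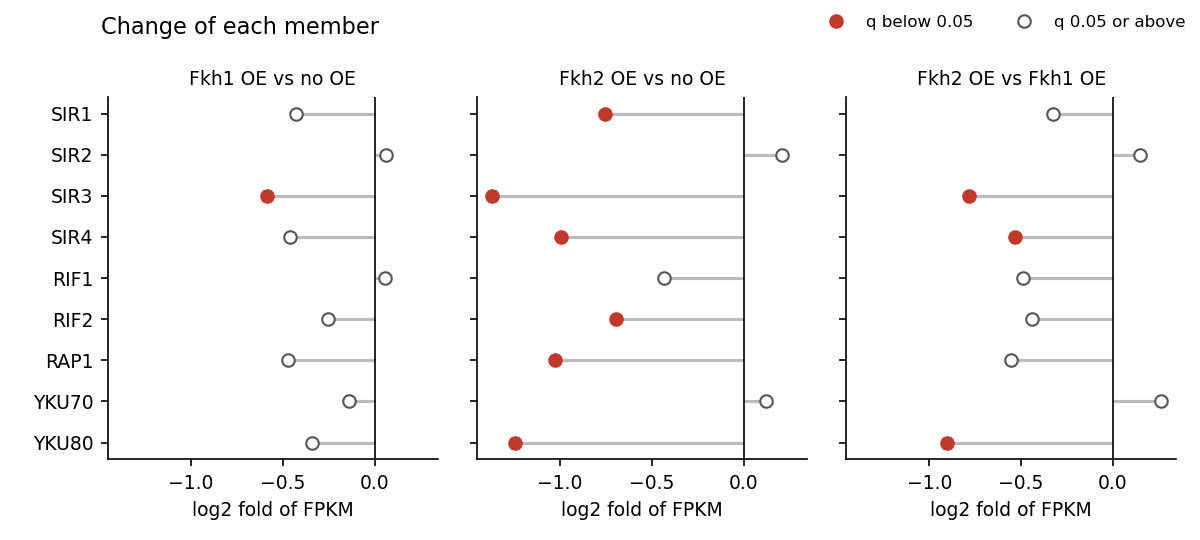
Log2 fold of FPKM for each of the 9 genes in the 3 comparisons, computed from the authors' combined values; filled points have a q below 0.05 and open points do not. In Fkh2 OE against no OE 6 points are filled, all left of 0 and with SIR3 at -1.37, while SIR2 and YKU70 lie right of 0.

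RAP1 and its partners were next. RAP1, an essential protein that binds telomeric repeats and silencers and also the promoters of ribosomal protein genes, stood at 19.2 FPKM in no OE, 13.9 in Fkh1 OE and 9.45 in Fkh2 OE. It was 2.03-fold lower in Fkh2 OE (log2 fold -1.02, q = 0.000327 in the authors' deposited table), and in Fkh1 OE its log2 fold was -0.47 with a q of 0.0924. RIF2, which limits telomere lengthening together with Rif1, stood at 24.6, 20.7 and 15.2 FPKM. The RIF2 fall in Fkh2 OE was 1.62-fold (log2 fold -0.69, q = 0.0269 in the authors' deposited table), the smallest of the 6, and it was the only one of the 6 lost at a q threshold of 0.01. RIF1, which brings the phosphatase Glc7 to origins where it opposes the kinase Cdc7-Dbf4, had 9.82, 10.2 and 7.28 FPKM. RIF1 was lowest in Fkh2 OE, but its log2 fold of -0.43 against no OE did not pass the test, with a q of 0.109 in the authors' deposited table.

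The 2 Ku genes stood at different levels, and of them only YKU80 was called in Fkh2 OE against no OE. YKU70 had 65.3, 59.2 and 71.0 FPKM in no OE, Fkh1 OE and Fkh2 OE, the highest of the 9 in every group and near the middle of all tested genes, at percentile 52.0 in no OE. It passed no test, with log2 folds of -0.14 in Fkh1 OE and 0.12 in Fkh2 OE and q of 0.660 and 0.702 in the authors' deposited table. YKU80, the partner subunit, had 14.1, 11.1 and 5.94 FPKM. YKU80 was 2.37-fold lower in Fkh2 OE (log2 fold -1.24, q = 0.000327 in the authors' deposited table), next to SIR3 in size, and in Fkh1 OE its log2 fold was -0.34 with a q of 0.316. The FPKM of YKU70 was 4.64 times that of YKU80 in no OE, 5.33 times in Fkh1 OE and 12.0 times in Fkh2 OE.

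**Figure D3:**
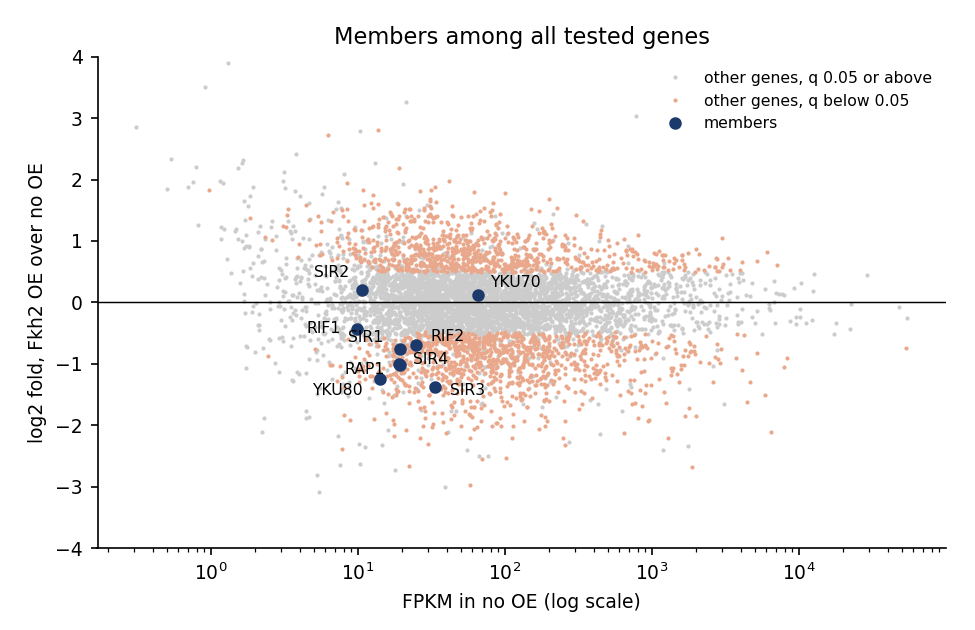
Each tested gene by its FPKM in no OE (log scale) and its log2 fold in Fkh2 OE over no OE, with the 9 members as large points; genes whose fold lies beyond the vertical axis, FKH2 among them, and genes of very low no OE level are not drawn. SIR3 and YKU80 lie lowest of the 9, within the cloud of other genes at their level.

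Set in order by level, the 9 genes read YKU70, SIR3, RIF2, SIR1, RAP1, SIR4, YKU80, SIR2 and RIF1 in both no OE and Fkh1 OE. SIR1, RAP1 and SIR4 lay within 18.9 to 19.3 FPKM of each other in no OE, and no spread is at hand to separate such neighbours. In Fkh2 OE the order was YKU70, RIF2, SIR3, SIR2, SIR1, SIR4, RAP1, RIF1 and YKU80. All members but YKU70 lay low among the genes tested in no OE, from percentile 7.76 for RIF1 to 32.0 for SIR3. The 6 genes called in Fkh2 OE were also those whose level fell from no OE through Fkh1 OE to Fkh2 OE. Their call already sets Fkh2 OE below no OE, so only the place of Fkh1 OE was open. Of the 6129 genes tested in all 3 comparisons, called or not, 28.9% had this order. Another 14.5% had Fkh1 OE highest and Fkh2 OE lowest, and 8.60% had no OE highest and Fkh1 OE lowest.

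Fkh2 OE was also set directly against Fkh1 OE. SIR3, SIR4 and YKU80 were lower in Fkh2 OE, 3 of 9 against a background of 11.7% lower and 7.24% higher (9.21% and 8.19% in the members' range of level), and the median log2 fold was -0.49 over the 9 and -0.04 over all tested genes. SIR3 was 1.72-fold lower (log2 fold -0.79, q = 0.000894 in the authors' deposited table). YKU80 was 1.87-fold lower (log2 fold -0.90, q = 0.00600 in the authors' deposited table). SIR4 was 1.45-fold lower (log2 fold -0.53, q = 0.0427 in the authors' deposited table), and this call was lost when p-values were adjusted over that comparison alone, with an adjusted p of 0.0756. RAP1 at -0.55, RIF1 at -0.49, RIF2 at -0.44 and SIR1 at -0.33 on the log2 scale did not pass, nor did SIR2 at 0.15 and YKU70 at 0.26. For the 3 called genes the difference between the overexpression strains was thus itself tested, and for RAP1, RIF2 and SIR1, called in Fkh2 OE and not in Fkh1 OE, a difference between the strains was not shown.

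By the rule on likeness, the genes whose log2 folds in Fkh1 OE and Fkh2 OE lay nearest to those of SIR3 were MLH3, SFI1 and CEX1. Their distances were 0.0405, 0.0531 and 0.0619 on the log2 scale over the 2 comparisons, among 5736 candidate genes of which 13 lay within 0.1. MLH3, a mismatch repair gene, went from 21.1 FPKM in no OE to 13.8 in Fkh1 OE and 8.32 in Fkh2 OE.

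Genes that work with the members were taken from lists. Of 25 partners of silencing and chromatin enzymes, 7 were lower and 3 higher in Fkh2 OE than in no OE, 28.0% and 12.0% beside 17.0% and 13.7% of all tested genes, with a median log2 fold of -0.07. HTZ1, which encodes the histone variant H2A.Z that bounds silent chromatin, fell from 120 to 48.3 FPKM (2.48-fold, q = 0.000327 in the authors' deposited table). ORC1, whose product binds Sir1 at silencers, fell from 13.8 to 6.33 FPKM (2.18-fold, q = 0.000327 in the authors' deposited table). HST4, a gene of the SIR2 family, fell from 18.4 to 9.87 FPKM (q = 0.00926 in the authors' deposited table). CAC2, a subunit gene of the chromatin assembly factor CAF-1, rose from 17.9 to 32.1 FPKM (q = 0.00141 in the authors' deposited table). In Fkh1 OE 1 of the 25 was lower, HST2, at 69.1 against 99.4 FPKM, and 0 were higher, beside 5.39% lower and 5.59% higher of all tested genes. Fkh2 OE against Fkh1 OE had 3 lower, HTZ1, ORC1 and HST1, and 2 higher, ASF1 and CAC2, beside 11.7% and 7.24% of all tested genes.

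Of 12 genes of telomerase and end protection, 1 was lower and 0 higher in Fkh2 OE than in no OE, beside 17.0% and 13.7% of all tested genes, with a median log2 fold of 0.03. That gene was EST3, a telomerase subunit gene, which fell from 84.6 to 51.2 FPKM (1.65-fold, q = 0.0212 in the authors' deposited table). In Fkh1 OE Cuffdiff called 0 of the 12, beside 11.0% of all tested genes, and 0 had an unadjusted p below 0.05. Fkh2 OE against Fkh1 OE had 1 lower and 1 higher of the 12, beside 11.7% and 7.24% of all tested genes. EST3 was the lower one, at 51.2 against 102 FPKM (2.00-fold, q = 0.000327 in the authors' deposited table). EST2, the catalytic subunit gene, was higher, at 12.6 FPKM in Fkh2 OE and 7.39 in Fkh1 OE (q = 0.00851 in the authors' deposited table). Its level in no OE was 9.53 FPKM. Of the kinase and phosphatase genes through which Rif1 acts on origins, DBF4 fell from 32.0 FPKM in no OE and 32.2 in Fkh1 OE to 14.3 in Fkh2 OE (2.24-fold against no OE, q = 0.000327 in the authors' deposited table). CDC7 stood at 24.5, 21.2 and 25.6 FPKM and GLC7 at 849, 732 and 631, with no call.

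The silenced loci themselves gave few readable values. HMLALPHA1, HMLALPHA2 and HMRA2 were listed at 0 in all 3 groups. HMRA1 was listed at 1983 FPKM in no OE, 1295 in Fkh1 OE and 553 in Fkh2 OE, the same order of groups as for SIR3. It was 3.59-fold lower in Fkh2 OE than in no OE (q = 0.000327 in the authors' deposited table) and 1.53-fold lower in Fkh1 OE (q = 0.0123 in the authors' deposited table). The a1 gene at MAT of an a cell has the same sequence as the silent copy at HMR, and no source used here says how reads of such copies were shared out, so neither the level nor the listings at 0 can be read as the state of the silent copy. MATALPHA1, in 1 entry with YCR041W, stood at 1.29, 2.19 and 2.09 FPKM with no call. MATALPHA2 shared an entry with BUD5, at 16.4, 13.7 and 8.13 FPKM, which was 2.02-fold lower in Fkh2 OE than in no OE and cannot be assigned to either gene. MATA1 had no entry under that name.

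Genes near chromosome ends moved in both directions. Of 316 genes within 20 kb of an end 185 were tested in Fkh2 OE against no OE, and 16 of them were higher and 15 lower, 8.65% and 8.11% beside 13.7% and 17.0% of all tested genes. Their median log2 fold was -0.05. In Fkh1 OE 5 of 187 were higher and 3 lower, beside 5.59% and 5.39% of all tested genes. The subtelomeric families were fixed by name and not by distance, so a gene of theirs need not lie near an end. Of these genes 29 were tested in Fkh2 OE against no OE, and 2 were higher and 1 lower. These were 6.90% and 3.45%, beside 13.7% and 17.0% of all tested genes. TIR3 rose from 16.7 to 29.6 FPKM and COS7 from 26.5 to 40.3, and DAN4 fell from 17.8 to 11.6. In Fkh1 OE Cuffdiff called 0 of 31, beside 11.0% of all tested genes, with 1 at an unadjusted p below 0.05. In Fkh2 OE against Fkh1 OE 1 of 31 was lower and 0 were higher, beside 11.7% and 7.24% of all tested genes. The lower one was FLO5, at 8.68 against 13.3 FPKM. Family members share sequence, so their values are uncertain.

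Other groups of genes moved beside the members in Fkh2 OE. Of 10 genes of cells past G1, 3 were higher and 2 lower in Fkh2 OE than in no OE. Among all tested genes 13.7% were higher and 17.0% lower. The higher ones were the mitotic cyclin genes CLB2, at 22.8 against 12.8 FPKM, and CLB1, at 7.62 against 3.25, and the histone gene HHF1. The histone genes HTA1 and HTB1 were lower, and CDC20, SWI5, CLB5, CLB6 and HHT1 had no call. The list's sum was 6345 FPKM in no OE, 6827 in Fkh1 OE and 4894 in Fkh2 OE. Most of that sum came from the histone genes, with HHT1 alone at 2480 FPKM in no OE. Of 6 haploid genes 3 were lower in that comparison, FUS1, GPA1 and RME1, and 0 higher, beside the same 17.0% and 13.7%. Their sum went from 3142 to 2180 FPKM. The tested genes specific to a cells had 3 of 6 lower and 0 higher in Fkh2 OE, again beside 17.0% and 13.7%. In Fkh1 OE 3 of 6 were higher and 0 lower, beside 5.59% and 5.39% of all tested genes. Their sums were 111602, 285628 and 85521 FPKM in no OE, Fkh1 OE and Fkh2 OE. Most of these sums came from MFA1 and MFA2, at 47681 and 53144 FPKM in no OE. The 4 genes specific to α cells summed to 79.4, 124 and 87.4 FPKM. STE3, the a-factor receptor gene, was higher in Fkh2 OE than in no OE, at 13.9 against 5.63 FPKM (q = 0.00116 in the authors' deposited table). SAG1 was higher in Fkh1 OE than in no OE, at 92.9 against 52.3 FPKM (q = 0.000327 in the authors' deposited table), and so was MF(ALPHA)1, at 2.33 FPKM against a listing at 0. The part of these differences in the members' values was not tested, and a change in the share of cells at a stage and a change in RNA per cell cannot be told apart.

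The members' own genes were then located in the BrdU tables, a readout on which their choice does not rest. By the R64 annotation SIR1 lies on chromosome XI at 640540 to 642504, 24.3 kb from the nearer end, RIF2 on chromosome XII at 1041799 to 1042986, 35.2 kb from the end, and SIR3 on the same arm at 1019315 to 1022251, 55.9 kb from it. RIF1 is on chromosome II at 751356 to 757106 and 56.1 kb from the end, and YKU70 on chromosome XIII at 838187 to 839995 and 84.4 kb from it. RAP1 is on chromosome XIV at 241689 to 244172, SIR2 on chromosome IV at 376757 to 378445, YKU80 on chromosome XIII at 478301 to 480190 and SIR4 on chromosome IV at 917571 to 921647, with the nearest of these, RAP1, 242 kb from an end. The BrdU signal is the authors' relative value for each 50 bp bin, combined over the libraries of a group, and was averaged over each gene body. No test is possible on combined columns, and a 2-fold difference was used as a size rule. No source used here says whether the columns share a scale of amount.

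In cells released for 60 min into 0.2 M hydroxyurea (HU), which stops forks soon after early origins fire, YKU70 had the largest fold of the 9 in Fkh1 OE. Its signal was 0.00453 in no OE, 0.0310 in Fkh1 OE and 0.00835 in Fkh2 OE, 6.86-fold and 1.85-fold higher than in no OE. SIR1 had 0.00410, 0.0131 and 0.00565, and was 3.20-fold higher in Fkh1 OE. SIR4 had 0.0115, 0.0239 and 0.01005, with 2.08-fold in Fkh1 OE. These 3 of 9 genes were past 2-fold higher in Fkh1 OE, where 12.1% of all genes were higher and 0.687% lower, and the median gene stood at 1.37-fold. SIR4 dropped out of the 3 in a 2 kb window and when columns were divided by their totals, a scaling that moved the median gene to 0.983-fold.

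In Fkh2 OE against no OE 0 of the 9 genes were past 2-fold, with 2.55% of all genes higher and 5.66% lower. YKU70 at 1.85-fold lay at percentile 97.0 of the genes and SIR1 at 1.38-fold at percentile 92.1. Against Fkh1 OE, YKU70 at 0.269 times, SIR4 at 0.421 times and SIR1 at 0.432 times were past 2-fold lower, as were 15.3% of all genes, with 0.369% past 2-fold higher. When columns were divided by their totals, 0 members were past 2-fold in that comparison, where the median gene moved from 0.732 to 1.57 times. With the same scaling SIR1 and YKU70 were past 2-fold higher in Fkh2 OE than in no OE, where the median gene moved from 1.03 to 1.59 times.

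**Figure D4:**
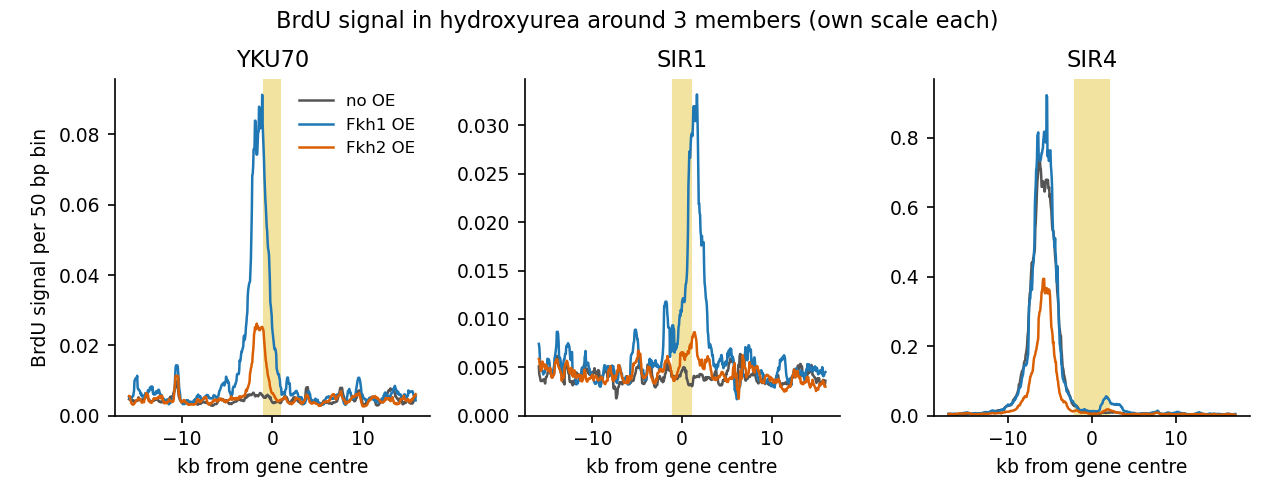
BrdU signal of the authors' combined HU columns in 50 bp bins around YKU70, SIR1 and SIR4, by distance from the gene's centre in kb, each panel on its own scale with the gene shaded; grey is no OE, blue Fkh1 OE and orange Fkh2 OE. A peak stands beside YKU70 and SIR1 in Fkh1 OE with a smaller one in Fkh2 OE, at SIR1 only 1.90 times the median bin. The tall peak left of SIR4 is present in all 3.

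Peaks stood beside these 3 genes. At YKU70 the highest bin in Fkh1 OE lay 0.212 kb left of the gene at 15.1 times the median bin of its column, and in Fkh2 OE it lay 0.812 kb left at 5.77 times. At SIR1 the highest bin in Fkh1 OE lay 0.671 kb right of the gene at 5.51 times the median bin. In Fkh2 OE the highest bin near SIR1 was at 1.90 times and in no OE at 1.49 times. The peak beside SIR4 lay 4.30 kb left of the gene in no OE at 173 times the median bin, 3.35 kb left in Fkh1 OE at 153 times and 3.75 kb left in Fkh2 OE at 86.8 times. SIR3 had 0.780 to 0.926 times the median bin over its body in the 3 HU columns. The highest bin within 15 kb of SIR3 in Fkh1 OE lay 12.5 kb to its left, at 25.1 times the median bin. RAP1 too had its highest bin close by, 0.603 kb right of the gene in no OE at 3.58 times. That of RAP1 was at 3.70 times in Fkh1 OE and 4.77 times in Fkh2 OE.

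In the time course without drug, BrdU was present from 20 to 35 min, from 30 to 45 min or from 40 to 55 min after the G1 block was lifted. SIR4 had the highest signal of the 9 in no OE in the first pulse, at 21.7 times the median bin, and 9.15 and 1.10 times in the later ones. SIR2 had the lowest, at 0.463, 0.177 and 0.428 times. Fkh1 OE was past 2-fold higher than no OE at 7 of 9 genes in the first pulse, where 60.7% of all genes were higher and 0.186% lower, with SIR1 at 7.64-fold, YKU70 at 6.70-fold and RIF2 at 5.59-fold. It was so at 7 of 9 in the second, where 45.1% of genes were higher and 0.0844% lower. It was so at 0 of 9 in the third, where 9.73% were higher and 0.0839% lower. When columns were divided by their totals, the first of these counts was 3, with the median gene at 1.08 in place of 2.30 times, and the second was 2, with 1.36 in place of 1.85 times.

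The DM strain lacks FKH1 and FKH2 and carries ARS305 at the ARS501 site. Genes on chromosomes III and V were left out of its comparison. In DM the signal with Fkh1 OE was past 2-fold lower at 4 of 9 genes. Of the 5431 genes compared, 28.4% were lower and 3.77% higher. RIF1 was at 0.248 times, YKU70 at 0.262, RIF2 at 0.365 and SIR3 at 0.460 times the value without Fkh1 OE, and the median gene at 0.707 times. YKU70 thus had 6.21 times the median bin in DM and 2.20 times in DM with Fkh1 OE, whereas in the wild-type strain it had 1.06 times without and 5.15 times with Fkh1 OE. SIR1 stood at 1.70 times in DM with Fkh1 OE, short of the 2-fold rule. When columns were divided by their totals, RIF1 and YKU70 were past 2-fold lower and SIR1 past 2-fold higher, with the median gene at 1.08 times. In RNR3 OE, SIR4 was 2.61-fold higher than in its control and the other 8 genes lay between 0.718 and 1.09 times, where 7.58% of all genes were past 2-fold higher and 0.134% lower.

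**Figure D5:**
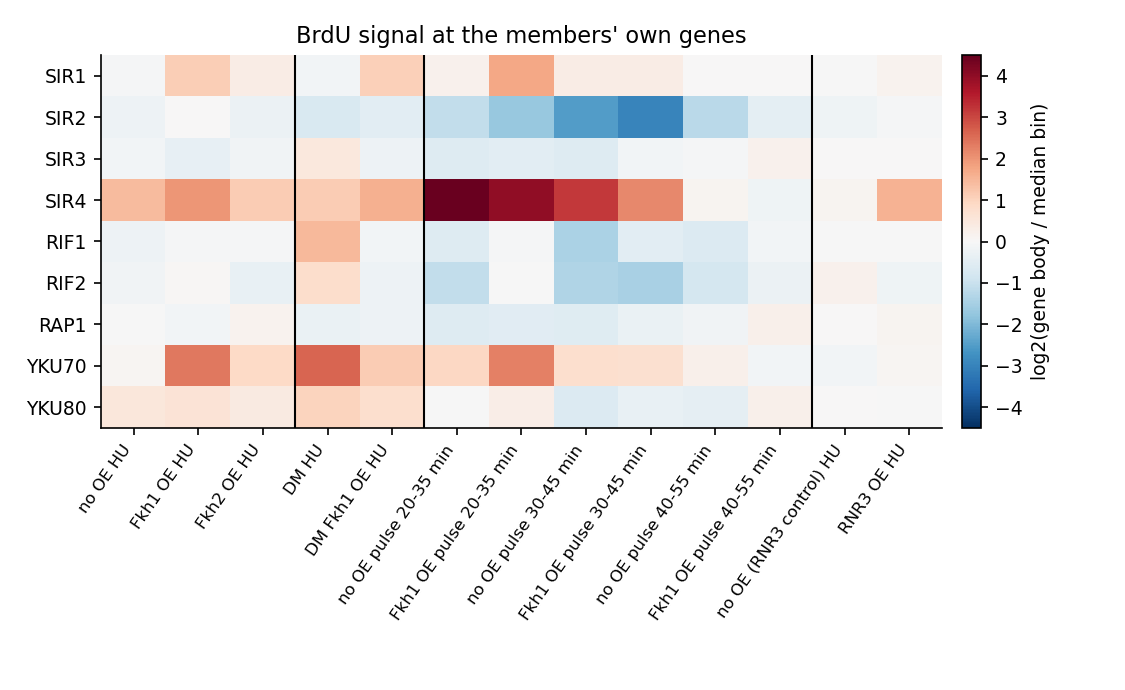
BrdU signal over each member's gene body divided by the median bin of the same column, on a log2 colour scale, in the 13 deposited columns; black lines part the 4 tables, and columns of different tables were not set against each other in amount. SIR4 is high in the first 2 pulses, SIR2 is low in them, and YKU70 is high in Fkh1 OE in HU and in DM.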

How the data were processed

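The 64 libraries, 58 of DNA and 6 of RNA, fall into 29 groups by their labels. Per the submitters' processing notes, TopHat2, Cufflinks and Cuffdiff, Bowtie2, SAMtools and bedtools and the build R64 were used. The deposited RNA table holds the authors' FPKM, 1 value a group, with Cuffdiff p-values and q-values per the file headers. The deposited BrdU tables hold the authors' signal in 50 bp bins, 1 combined column a group in 13 columns; no source used here says how libraries were combined and scaled. No per-sample column was left unmapped (0). The design foresaw values per library as possible; the files held combined values, so the authors' q is the test.

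From these, folds were recomputed from FPKM (the deposited log2 column was damaged in 262 rows), as were counts of calls (q below 0.05), Benjamini-Hochberg adjustments of the deposited p-values (tested on simulated data), mean BrdU signal per gene body and its folds, in Python 3.11.15 with pandas 2.3.3. Of 7053 gene names, 6101 matched the R64 gene table; 106 of 6931 entries held several genes. The members and lists were chosen with earlier results of these data known. Named genes were all 9 members, FKH1 and FKH2, all silent mating locus genes, up to 4 called genes a list and comparison with the largest log2 fold, and the 3 single-gene entries of at least 10 FPKM nearest to SIR3 in log2 fold; other genes named beside a count of 5 or fewer were named after their values were seen.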

Additional observations from a re-analysis of the deposited data

How the results depend on the processing

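Over the 9 members and 3 comparisons, the alternatives that could move a call (other q thresholds, adjustments or a fold limit) left 147 values on the same side of the threshold, while 10 lost the call and 4 gained it. These alternatives leave the log2 fold as it was and say nothing of its direction. A pseudocount of 1 and centring on the median leave q as it was, and centring, which alone could turn a sign, turned none of a called member. RIF1 in Fkh2 OE against no OE lay under 10 FPKM in both groups and has no value with that filter. In Fkh2 OE against no OE the count of lower members was 6 under every alternative run except a q threshold of 0.01, which gave 5. In Fkh1 OE the count of 1 became 0 at a q threshold of 0.01, 0 with p-values adjusted over this comparison, 0 with that adjustment over genes of at least 10 FPKM, 0 with a fold of at least 1.5, and 3 at a q threshold of 0.1 (SIR3, SIR4 and RAP1). Fkh2 OE against Fkh1 OE, with 3, gave 5 at a threshold of 0.1, and 2, without SIR4, at 0.01, with either adjustment of this comparison and with a fold of at least 1.5. An adjustment over the 3 comparisons together, chosen after seeing the data, gave 1, 6 and 2. The deposited q was below such an adjustment in 18571 of 18647 tests, 3768 calls against 3160, and no source used here gives the family over which the authors adjusted. All genes called in Fkh1 OE numbered 682 with the deposited q, 322 at a threshold of 0.01, 342 with either adjustment of this comparison alone; Fkh2 OE against Fkh1 OE had 1178 with the deposited q and 627 at 0.01. The share of called genes near chromosome ends was taken within 10, 20 and 30 kb. In Fkh1 OE against no OE it was 1.39%, 4.28% and 6.08%, beside 11.0% of all tested genes. In Fkh2 OE against no OE it was 11.3%, 16.8% and 21.6%, beside 30.7%. Fkh2 OE against Fkh1 OE had 12.3%, 13.9% and 13.0%, beside 18.9%. Dividing BrdU columns by their totals changed the members past 2-fold from 0 to 2 in Fkh2 OE against no OE in HU, from 3 to 0 in Fkh2 OE against Fkh1 OE, from 7 to 3 in the 20 to 35 min pulse and from 7 to 2 in the 30 to 45 min pulse; the totals differ between columns, and the 2-fold limit is applied after that scaling. No paired analysis was possible because the tables hold 1 combined value a group, and for the same reason no library could be left out. Promoter motifs were not run, since no sequence was used here.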

Other observations

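The genes next to the members in the genome were read as well. Of the 18 direct neighbours with a test in Fkh2 OE against no OE, 2 were lower, ECM7 beside SIR3, at 27.9 against 45.2 FPKM, and SPG4 beside YKU80, at 2054 against 5837 FPKM (q = 0.000327 in the authors' deposited table). SKG1 beside SIR1, NAT1 beside SIR2 and NGL2 beside YKU70 were higher, and the median log2 fold of the 18 was 0.29. Of all genes tested in that comparison, 17.0% were lower and 13.7% higher. SKG1 thus stood at 124 against 79.4 FPKM where SIR1 was lower. RPS1A, the ribosomal protein gene left of SIR3, stood at 1280 FPKM in no OE and 1811 in Fkh2 OE with a q of 0.0547 in the authors' deposited table.

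The median BrdU signal was lower within 20 kb of chromosome ends than elsewhere in all 3 HU columns of the wild-type strain. Medians in HU describe bins of low signal, since few bins lie in peaks. The means near ends were 0.00511 in no OE, 0.00495 in Fkh1 OE and 0.00346 in Fkh2 OE. Elsewhere they were 0.0169, 0.0237 and 0.0110. Whether sequence shared between ends lowered these values was not tested. The median bin near ends was 0.00336 in no OE, 0.00402 in Fkh1 OE and 0.00341 in Fkh2 OE, against 0.00433, 0.00613 and 0.00459 elsewhere. Near ends the median was thus highest in Fkh1 OE, whereas the mean was highest in no OE and lowest in Fkh2 OE. In the 20 to 35 min pulse it was 0.00344 in no OE and 0.00719 in Fkh1 OE, against 0.00870 and 0.0239 elsewhere.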
